A study of Mus musculus with 60 samples.

Results

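Nucleotide excision repair removes bulky, helix-distorting lesions from DNA, such as those made by ultraviolet light, by cutting the damaged strand on both sides of the lesion and filling the gap. Damage is found either by XPC anywhere in the genome or by an RNA polymerase II that stalls on it, a branch that needs CSB (Ercc6) and CSA (Ercc8). The helicases XPB (Ercc3) and XPD (Ercc2) of TFIIH open the helix, XPA checks the damage and places the nucleases, XPG (Ercc5) cuts 3′ of the lesion, and the ERCC1-XPF heterodimer (Ercc1, Ercc4) cuts 5′ of it. SLX4 is a scaffold that binds XPF for crosslink repair and other tasks. The expression of the genes for these 10 proteins was followed in mouse fibroblasts with and without a defect in Ercc1. All 10 genes, listed by name with no threshold on their values, were found among the 56980 gene identifiers of each of 2 count tables, and all 10 passed the expression filter in both.

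Of tail tip fibroblasts put through reprogramming there are 36 libraries, in 12 groups of 3. D/KO stands for 4FJ_ERCC1_(d/-) cells, whose donor was male and 8 weeks old, and WT for 4FJ_(+/-)_OCT4-GFP cells, whose donor was female and 22 weeks old. Between them genotype, sex, age, line and the Oct4-GFP reporter cannot be told apart. Per the study, the D/KO genotype leaves only a truncated Ercc1 allele, and both lines carry the doxycycline-driven reprogramming factors Oct4, Sox2, Klf4 and Myc. Doxycycline (2 µg/ml) was given for 0, 2 or 4 days, alone or with VC, which is ascorbic acid (50 µg/ml) and the GSK3 inhibitor CHIR (3 µM). The inhibitor table holds 24 libraries, 3 in each of 8 groups. Its D/KO cells (ERCC1_(d/-), female, 4 weeks old) were kept as control or given Repsox or A83-01, inhibitors of the TGFb type I receptor, DMH-1, an inhibitor of BMP type I receptors, or Vactosertib, which the study lists as acting on a receptor of each kind. Its WT cells (ERCC1_(+/+), female, 14 weeks old) were taken from tail tip or from skin. A last group, WT 4F TGFB, has the line, sex and age of the WT reprogramming cells and is labelled with TGFB only. No label says that replicates came from separate animals, so p-values measure only the spread between these libraries, which may be technical.

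A reprogramming library held 16538374 to 18484951 counts and an inhibitor library 17102639 to 30599138. Pou5f1, the Oct4 gene, was at 0.835 CPM (counts scaled to library size) on average in D/KO day 0 and at 119 CPM in D/KO day 4 plus VC, and at 1.96 and 96.6 CPM in the matching WT groups, which follows the labels. The summed level of 8 fibroblast markers was at least 32870 CPM in every library. It differed with the condition: 183100 to 252500 CPM in D/KO day 0 plus VC and 32870 to 34060 in D/KO day 4 plus VC, and 154800 to 170600 and 60430 to 71500 in the matching WT groups. Its part in the members' values was not tested. Libraries of the same group differed along gene length: the slope of a library's log2 CPM, less the gene's mean over libraries, on log2 gene length ran from -0.279 in WT skin replicate 1 and -0.175 in D/KO Repsox replicate 2 to 0.101 in D/KO Repsox replicate 3. Some members followed this axis. Xpa, whose exons sum to 1894 bases, was highest in the library of the lowest slope in 16 of 20 groups. Slx4, with 7657 bases, and Ercc6, the longest member with 12851, were lowest in that library in 14 and 13 of 20. Ercc8, also with 7657 bases, did not follow it: it was lowest there in 5 groups and highest in 9. Calls lost when this slope was removed are given beside the result.

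The members' levels were compared with each other as TPM (counts scaled to gene length and library size). Ercc3 had the highest median over the 36 reprogramming libraries, 57.2 TPM, followed by Ercc5 at 28.4, Xpa at 26.8 and Ercc1 at 20.6. Xpc, Ercc4 and Slx4 lay close together at 14.1, 13.2 and 12.1 TPM, and their library ranges overlapped. Ercc2 was at 7.44, Ercc6 at 4.04 and Ercc8 at 1.29 TPM. Over the 24 inhibitor libraries Ercc3 was again the highest at 56.2 and Ercc8 the lowest at 1.11 TPM. Between them came Xpa at 25.7, Ercc1 at 23.1, Ercc5 at 18.1, Xpc at 9.95, Ercc4 at 9.53, Slx4 at 8.49, Ercc2 at 5.32 and Ercc6 at 1.81 TPM. Ercc8 rests on 25 to 82 counts per library.

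Ercc1 (ENSMUSG00000003549) lies on chromosome 7 from 19078703 to 19090449 on the forward strand, and Ercc2 (ENSMUSG00000030400) lies close by, from 19115935 to 19129619, in GRCm39. Of the exon bases of Ercc1, 106 (3.41%) are shared with Polr1g, a subunit of RNA polymerase I on the other strand. Ercc2 shares 744 exon bases (17.8%) with Klc3, a kinesin light chain, and 1025 (24.6%) with the long noncoding RNA Gm26852, both on the other strand, and 11 with Mir343. Xpa shares 77 exon bases (4.07%) with Ncbp1, a cap-binding protein. Whether the authors counted by strand is not given in the sources used here, so reads in these stretches cannot be assigned with certainty. Ercc4 lies on chromosome 16 from 12927548 to 12968481 and Ercc6 on chromosome 14 from 32235478 to 32302947, and neither shares exon bases with another gene of the tables.

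The promoters of 3 members are shown: Ercc1 and Ercc4, which encode the subunits of one nuclease and moved in opposite directions in D/KO cells, and Ercc6, with the largest genotype difference of a change among the members. Each window runs from 250 bases before to 50 after the RefSeq start, 5′ to 3′ on the gene's strand (RefSeq, table built on GRCm38.p6, matched exactly to GRCm39). Capitals mark matches on either strand to a CCAAT box (CCAAT), GC box (GGGCGG), ETS element (CCGGAAGT), NRF1 element, E-box (CACGTG) or E2F element (TTTGGCGC, TTTCGCGC, TTTCCCGC or TTTGCCGC).
Ercc1, chr7:19078746-19079045, forward strand: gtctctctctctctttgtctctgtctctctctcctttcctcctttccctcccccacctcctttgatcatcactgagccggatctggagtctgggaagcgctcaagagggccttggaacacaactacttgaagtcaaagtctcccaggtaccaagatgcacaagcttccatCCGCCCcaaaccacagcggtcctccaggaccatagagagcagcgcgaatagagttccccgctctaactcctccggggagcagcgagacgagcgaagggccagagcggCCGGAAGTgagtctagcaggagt
Ercc4, chr16:12927350-12927649, forward strand: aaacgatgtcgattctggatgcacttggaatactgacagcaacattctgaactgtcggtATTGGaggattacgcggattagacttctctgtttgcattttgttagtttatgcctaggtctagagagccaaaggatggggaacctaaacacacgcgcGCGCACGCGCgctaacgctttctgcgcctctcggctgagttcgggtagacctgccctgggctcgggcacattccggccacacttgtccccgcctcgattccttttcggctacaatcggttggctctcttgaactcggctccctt
Ercc6, chr14:32235228-32235527, forward strand: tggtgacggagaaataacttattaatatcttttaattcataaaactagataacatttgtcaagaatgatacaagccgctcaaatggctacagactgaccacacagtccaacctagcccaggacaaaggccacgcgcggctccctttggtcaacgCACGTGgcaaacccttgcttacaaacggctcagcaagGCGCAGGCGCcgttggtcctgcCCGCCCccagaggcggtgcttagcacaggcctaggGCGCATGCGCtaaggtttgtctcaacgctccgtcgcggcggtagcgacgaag

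The Ercc1 window holds 1 GC box and 1 ETS element and lies inside the deposited gene, whose start is 293 bases before the RefSeq start. The Ercc4 window holds 1 CCAAT box and 1 NRF1 element, and the Ercc6 window holds 1 E-box, 1 GC box and 2 NRF1 elements. Of 27025 promoter windows of the same length, 37.9% hold a CCAAT box, 35.9% a GC box, 4% an ETS element, 4.78% an NRF1 element, 7.24% an E-box and 2.32% an E2F element. The windows of Ercc1 and Ercc4 had no motif of this search in common. No marked match overlaps another in the 3 windows shown, while in the window of Ercc2 a CCAAT box overlaps the NRF1 element. A match describes letters only.

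**Figure D1:**
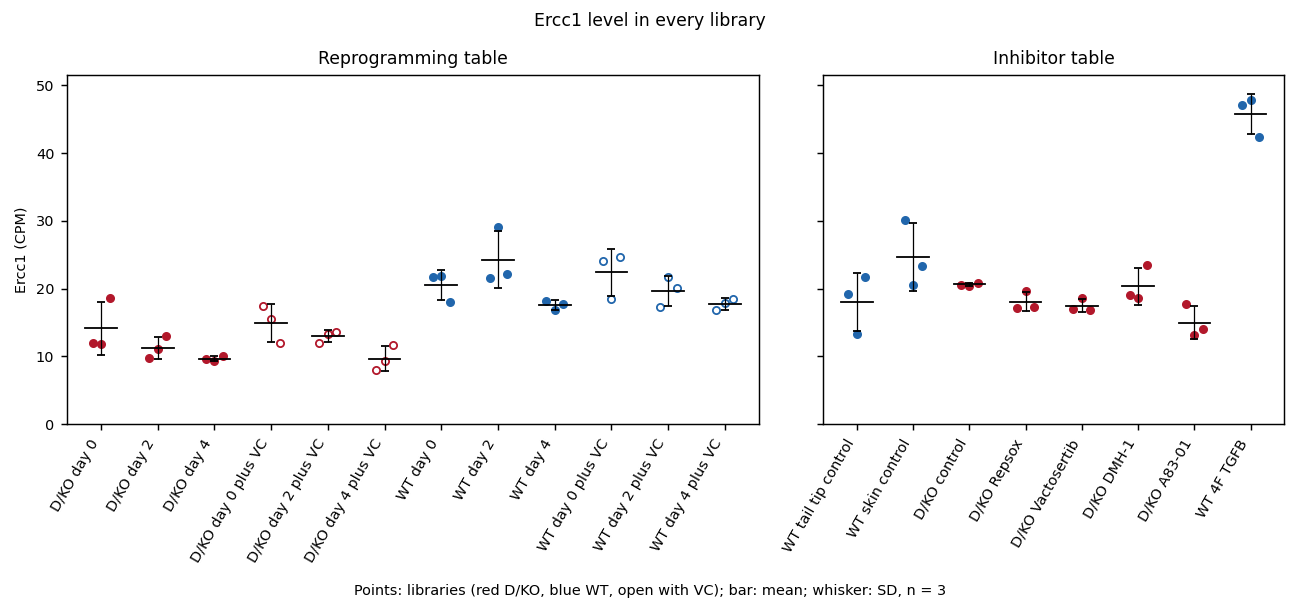
Ercc1 in every library of both tables, in CPM on a linear axis from 0. Points are libraries, bars are means and whiskers SDs of 3 libraries. In the reprogramming table each D/KO group lies below the WT group of the same condition on average, while D/KO control and WT tail tip control overlap in the inhibitor table.

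The first question was whether Ercc1, the targeted gene, was lower in D/KO cells. At day 0 Ercc1 was at 11.9, 11.9 and 18.6 CPM in D/KO libraries and at 21.8, 21.9 and 17.98 CPM in WT libraries. D/KO replicate 3 lay above the lowest WT library, so the groups overlapped. At day 2 the D/KO libraries were at 9.78, 11.03 and 13.03 CPM against 21.6, 29.1 and 22.2 in WT, and at day 4 at 9.61, 9.35 and 10.1 CPM against 18.2, 16.9 and 17.8. At both days every D/KO library lay below every WT library. The log2 fold change of D/KO against WT was -0.54 (SE 0.16) at day 0, -1.11 (SE 0.17) at day 2 and -0.86 (SE 0.17) at day 4. With VC it was -0.58 at day 0, -0.60 at day 2 and -0.87 at day 4. Ercc1 was lower in D/KO cells in all 6 conditions by edgeR's quasi-likelihood test (adjusted p from 1.33e-06 to 0.0102). The day 0 call was lost without D/KO day 0 replicate 1 or 2, with log2 fold changes of -0.43 and -0.42. The day 0 plus VC call was lost without D/KO replicate 3 (-0.44) or WT replicate 3 (-0.50).

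In the inhibitor table Ercc1 in D/KO control against WT tail tip control gave no difference that passed the test. These are other lines than those above, from donors of 4 and 14 weeks, so genotype and age cannot be told apart. Ercc1 was at 20.6, 20.3 and 20.9 CPM in D/KO control and at 19.2, 13.3 and 21.7 CPM in WT tail tip control, a log2 fold change of 0.19 with a 95% interval from -0.15 to 0.54 (edgeR adjusted p = 0.394). WT tail tip replicate 2 was the low library, and without it the log2 fold change was 0.02, while without WT tail tip replicate 3 it was 0.34, and neither was called. A gene count sums all exons, so transcripts of a truncated and of an intact allele enter the same value, and the count by itself checks no label. Over the reprogramming libraries 152 to 567 counts stand behind Ercc1.

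**Figure D2:**
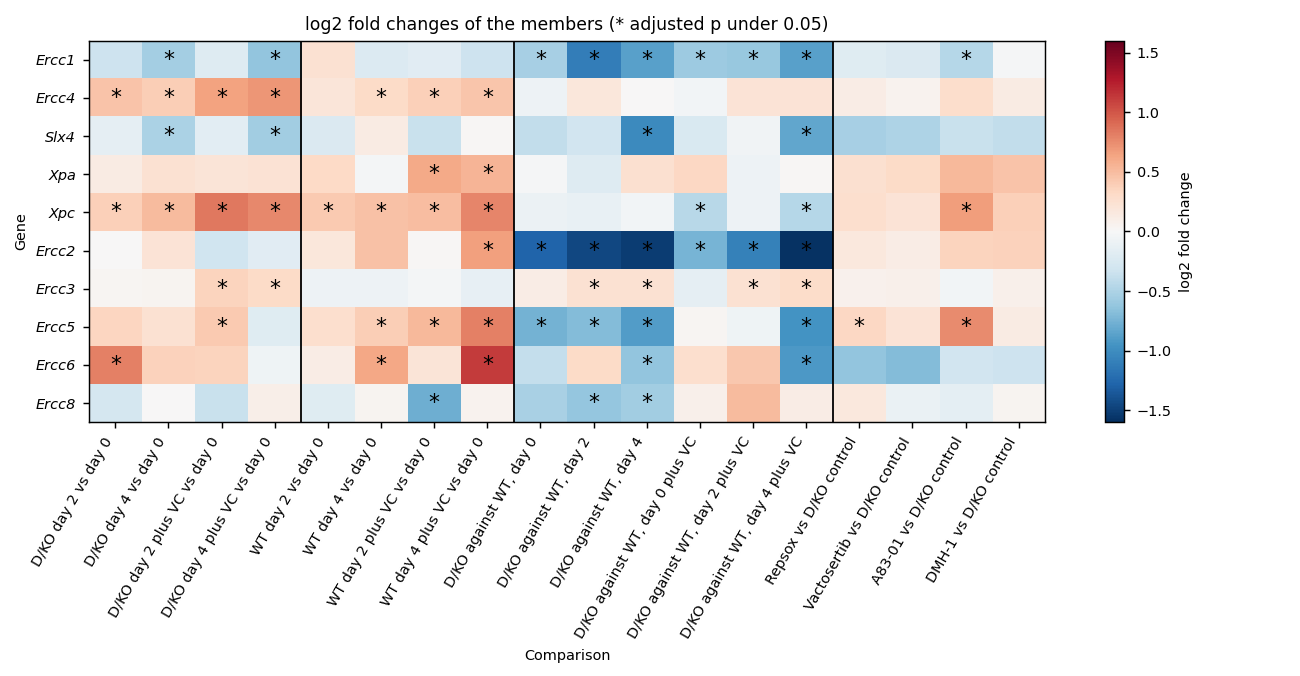
Heat map of log2 fold changes for the 10 members (rows) across the comparisons (columns), red higher and blue lower, with a mark where the adjusted p was under 0.05. Xpc is called higher in all 8 comparisons with day 0 and Ercc4 in 7, and Ercc1 and Ercc2 are lower in D/KO than in WT cells in all 6 conditions.

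The next question was how the set moved over reprogramming. Days 2 and 4 were each set against the day 0 libraries of their arm, which both comparisons share. In D/KO cells 3 of 10 members were called at day 2, all higher, and 4 at day 4, 2 higher and 2 lower, against 27.4% and 37% of 15832 genes called in either direction. With VC the counts were 4 at day 2, all higher, and 5 at day 4, 3 higher and 2 lower (47.4% and 54.1% of genes). In WT cells 1 of 10 was called at day 2 and 4 at day 4, all higher, against 10.6% and 24.5% of genes. With VC 5 were called at day 2, 4 of them higher, and 6 at day 4, all higher (27.5% and 44.7% of genes). In D/KO cells and at WT day 2 the members' shares lay near those of all genes, and in the other WT comparisons they were larger, which was not tested for 10 genes. The count at D/KO day 2 ran from 1 to 5 when a library was left out, and that at D/KO day 4 was 2 with only the groups compared. The count at WT day 4 was 2 with the gene length correction and 1 in 5 of the 6 fits that left out a library, and that at WT day 2 plus VC was 3 to 4 in such fits. By direction, the genes called higher and lower were 14.3% and 13.2% at D/KO day 2 and 18.3% and 18.7% at D/KO day 4. With VC the D/KO shares were 23.8% and 23.6% for day 2 and 27.9% and 26.2% for day 4. For WT cells without VC they were 6.26% and 4.3% at day 2 and 11.7% and 12.8% at day 4. With VC the WT shares were 13.8% and 13.7% for day 2 and 22.7% and 22% for day 4. At day 4 plus VC the members' median log2 fold change was 0.01 for D/KO and 0.49 for WT, and the medians of all genes were 0.01 and 0.03. At day 2 plus VC the members' medians went the other way, 0.28 for D/KO and 0.11 for WT. Without VC they were 0.08 and 0.19 at day 2 and 0.23 and 0.22 at day 4.

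The subunits of the 5′ nuclease moved apart in D/KO cells. Ercc1 fell at day 4, to the levels given above, with a log2 fold change of -0.55 (SE 0.17, edgeR adjusted p = 0.00986). That call rests on D/KO day 0 replicate 3: without it the log2 fold change was -0.30 and was not called, nor was it in a fit of only the groups compared, in place of all groups of the table. With VC, Ercc1 was at 17.4, 15.6 and 11.9 CPM at day 0, at 11.98, 13.3 and 13.6 at day 2 and at 8.04, 9.30 and 11.7 at day 4. Every library of day 4 lay below every day 0 library, and the log2 fold change was -0.63 (SE 0.17, edgeR adjusted p = 0.0021). In WT cells Ercc1 passed the test at no time point, with log2 fold changes from -0.34 to 0.24. The difference between the genotypes' changes was not called for Ercc1 in any of the 4 comparisons (log2 differences from -0.57 to -0.02). These are bulk cultures, in which fewer cells of a type and less RNA per cell cannot be told apart.

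Ercc4, the catalytic subunit XPF, rose in 7 of the 8 comparisons with day 0. In D/KO cells with VC it was at 19.0, 19.9 and 21.0 CPM at day 0, at 27.7, 31.0 and 35.0 at day 2 and at 32.3, 29.7 and 35.6 at day 4. The later libraries all lay above those of day 0, with log2 fold changes of 0.65 (SE 0.11) and 0.70 (SE 0.11, edgeR adjusted p = 2.14e-06). Without VC, Ercc4 in D/KO cells went from 18.4, 18.3 and 16.1 CPM to 25.1, 25.7 and 21.8 at day 2 and 21.9, 24.1 and 23.8 at day 4. The log2 fold changes were 0.46 and 0.40, and the libraries of day 0 lay below all others. In WT cells the log2 fold change was 0.19 at day 2, not called, and 0.31 at day 4, called. With VC the values for days 2 and 4 were 0.38 and 0.45, both called, the first lost in 2 of 6 fits that left out a library and in the fit without a filter on low counts. The call at WT day 4 was lost when gene length was corrected (0.24), without a filter and in 5 of the 6 fits that left out a library. VC raised Ercc4 at a fixed day in D/KO cells at day 2 (0.37) and day 4 (0.48) and in WT cells at day 2 (0.33). The calls at day 2 were lost without a filter and in 2 (D/KO) and 3 (WT) of 6 fits that left out a library.

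**Figure D3:**
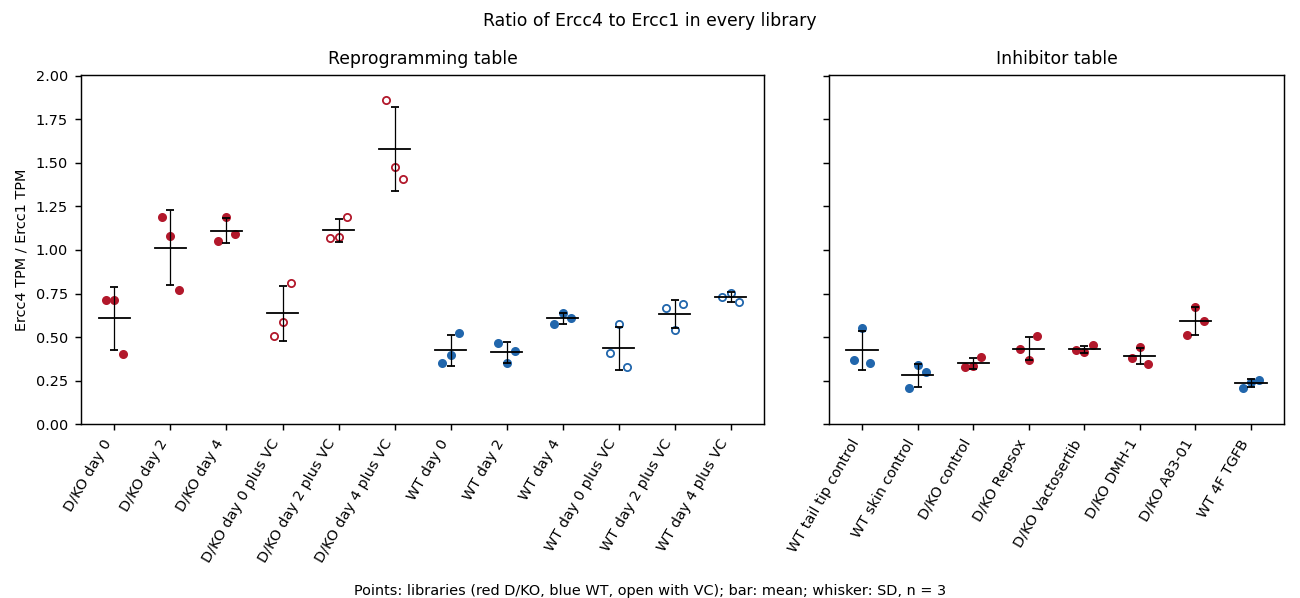
Ratio of Ercc4 TPM to Ercc1 TPM in every library, on a linear axis from 0, with means and SDs of 3 libraries. In D/KO cells with VC the ratio is 0.505 to 0.813 at day 0 and 1.41 to 1.86 at day 4, and no WT library of the reprogramming table is above 0.755.

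The ratio of Ercc4 TPM to Ercc1 TPM does not depend on how libraries are scaled. It was not corrected for the gene length slope, and the exons of Ercc4 sum to 6730 bases and those of Ercc1 to 3111. The part of that slope in the ratio was not tested. The ratio in D/KO cells was 0.609 ± 0.18 (SD, n = 3) at day 0, 1.01 ± 0.216 at day 2 and 1.11 ± 0.0713 at day 4. With VC it was 0.636 ± 0.159, 1.11 ± 0.067 and 1.58 ± 0.243. In WT cells it was 0.425 ± 0.0894 at day 0, 0.412 ± 0.059 at day 2 and 0.607 ± 0.033 at day 4, so that days 0 and 2 overlapped, and with VC 0.436 ± 0.125, 0.633 ± 0.0804 and 0.730 ± 0.0263. In each arm the day 4 libraries all lay above the day 0 libraries. In the inhibitor table the ratio was 0.350 ± 0.0297 in D/KO control and 0.592 ± 0.0815 with A83-01, and lowest, at 0.237 ± 0.023, in WT 4F TGFB. These ratios are given as a description.

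Slx4, the scaffold, fell in D/KO cells at day 4 and passed the test at no time point in WT cells. With VC it was at 31.1, 21.8 and 27.0 CPM in D/KO day 0 and at 23.7, 14.3 and 16.2 at day 4, where replicate 1 lay above the lowest day 0 library. The log2 fold change was -0.56 (SE 0.20, edgeR adjusted p = 0.0158), lost in 3 of the 6 fits that left out a library, and -0.14 when day 0 without VC was the baseline, which was not called. Without VC it was -0.51 (SE 0.20) and was lost with DESeq2's size factors, with only the groups compared and in 4 of 6 such fits, down to -0.32 without D/KO day 4 replicate 2, the library of the lowest length slope in its group. At day 4 Slx4 was at 14.8, 10.1 and 17.2 CPM in D/KO and at 29.1, 27.2 and 29.0 in WT libraries, with no overlap and a log2 fold change of -1.02 (SE 0.20, edgeR adjusted p = 6.04e-05). With VC that difference was -0.83, and it was not called at days 0 and 2.

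**Figure D4:**
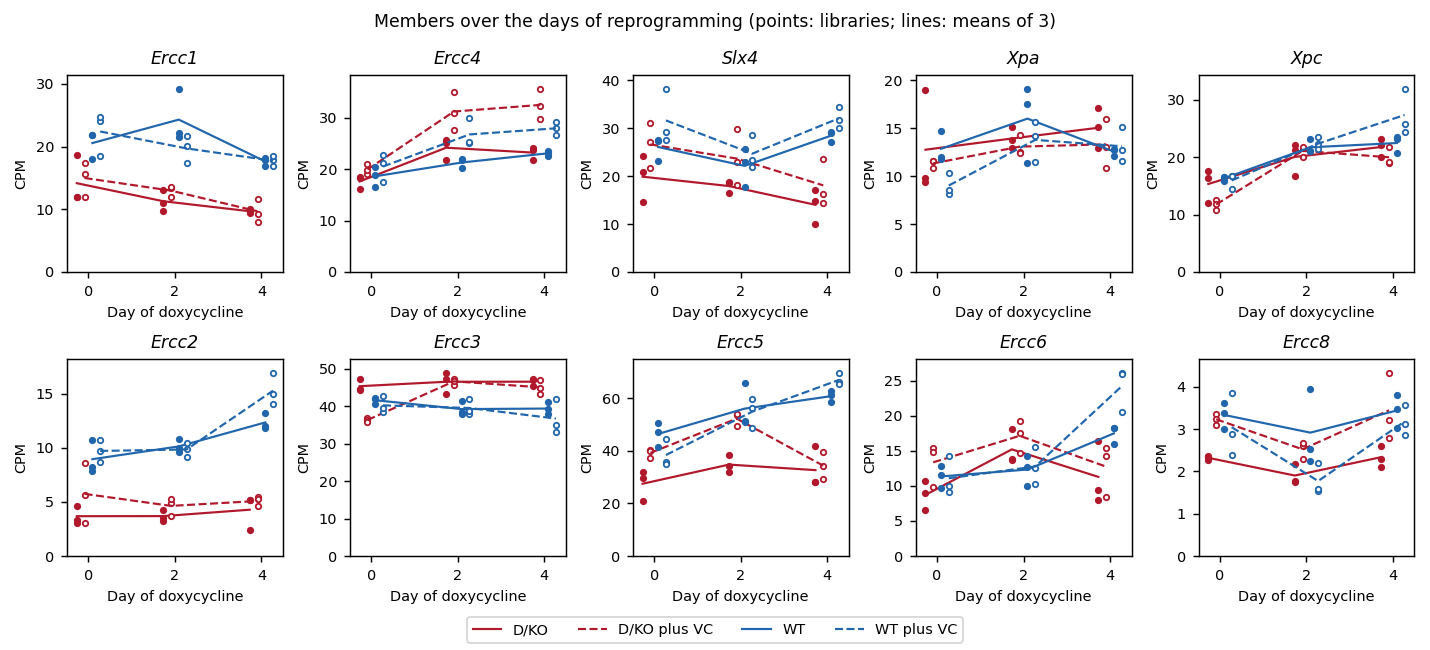
CPM of each member at days 0, 2 and 4 of doxycycline in D/KO and WT cells with and without VC, with points for libraries and lines through means of 3 libraries. Xpc rises in all 4 arms, Ercc2 lies lower in D/KO at each day, and Ercc5 and Ercc6 part between D/KO and WT at day 4 plus VC.

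Xpc, which finds damage for repair anywhere in the genome, was the member that rose in all 8 comparisons, with log2 fold changes from 0.39 to 0.84. In D/KO cells with VC it was at 12.6, 10.8 and 11.9 CPM at day 0, 21.6, 19.9 and 21.8 at day 2 and 21.7, 19.1 and 19.2 at day 4. In WT cells with VC it was at 16.7, 14.5 and 16.7 CPM at day 0 and at 31.9, 24.5 and 25.7 at day 4 (0.78, SE 0.13, edgeR adjusted p = 4.77e-06). In both lines all later libraries with VC lay above all day 0 libraries. The call at D/KO day 2 without VC was lost in 3 of 6 fits that left out a library, down to 0.24 without D/KO day 0 replicate 3, and that at WT day 2 in 4 of 6, and both were lost without a filter, the first also with only the groups compared. At day 0, Xpc was called lower with VC in D/KO cells (-0.38, edgeR adjusted p = 0.0304). That call was lost in 4 of 6 fits that left out a library, without a filter and with only the groups compared. VC gave a log2 fold change of -0.03 in WT cells, and the difference between those effects was not tested.

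Xpa, which checks the damage, was called in WT cells with VC, at day 2 (0.61, SE 0.20) and day 4 (0.54, SE 0.20). Its libraries were at 10.4, 8.17 and 8.56 CPM at WT day 0 plus VC, 15.7, 14.2 and 11.5 at day 2 and 12.7, 15.1 and 11.6 at day 4. All later libraries lay above those of day 0. With day 0 without VC as the baseline the log2 fold changes were 0.10 and 0.03, not called, WT day 0 without VC being at 11.8 to 14.8 CPM. Leaving out a library ended the call in 4 and 3 of 6 fits. Xpa in D/KO cells had log2 fold changes from 0.13 to 0.24 and passed no test.

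The helicases of TFIIH differed in level and in behaviour. Ercc2 was the member with the largest difference between the lines: at day 4 plus VC it was at 5.45, 5.24 and 4.58 CPM in D/KO and at 14.0, 16.9 and 14.9 in WT libraries, a log2 fold change of -1.59 (SE 0.23, edgeR adjusted p = 5.85e-07). It was lower in D/KO cells in all 6 conditions, with log2 fold changes from -1.59 to -0.74. The smallest was at day 0 plus VC, where the D/KO libraries were at 8.61, 3.01 and 5.61 CPM, and the call was lost in 4 of 6 fits that left out a library and with only the groups compared. Without D/KO replicate 2 it was -0.44 and without D/KO replicate 1 it was -1.16. In WT cells Ercc2 rose at day 4 plus VC (0.65, SE 0.22), a call lost in 2 of 6 such fits. Klc3, which shares 17.8% of the exon bases of Ercc2, fell there by 2.58 on the log2 scale, and Klc3 was lower in D/KO than in WT cells in 5 of 6 conditions. Gm26852, which shares 24.6%, had a log2 fold change of 1.15 there (SE 0.94, not called) at a mean of 0.81 CPM in WT day 4 plus VC, its highest group in this table. Ercc2 in D/KO cells passed no test against day 0.

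Ercc3 varied least of the members in the reprogramming table, where the highest group mean was 1.28 times the lowest. It was at 36.9, 36.2 and 35.9 CPM in D/KO day 0 plus VC, below the 44.3, 47.2 and 44.7 CPM of D/KO day 0 without VC, and this VC effect was called (-0.32, SE 0.09, edgeR adjusted p = 0.00464), though not without a filter or with only the groups compared. Against day 0 plus VC it rose at day 2 (0.36) and day 4 (0.31) plus VC. The second call was lost without a filter and with only the groups compared. With day 0 without VC as the baseline those values were 0.04 and -0.01, neither called. Ercc3 was higher in D/KO than in WT cells in 4 of 6 conditions, with log2 fold changes from 0.24 to 0.30. All 4 of these calls were lost without a filter, those at days 2 and 4 without VC also with only the groups compared, and those at day 2 with and without VC in 4 of 6 fits that left out a library.

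Ercc5, the 3′ nuclease, rose in WT cells by day 4 (0.39) and, with VC, by day 2 (0.52) and by day 4 (0.80, SE 0.14, edgeR adjusted p = 1.66e-05). In the last case the libraries were at 35.8, 44.4 and 35.0 CPM at day 0 and at 66.0, 69.5 and 65.2 at day 4, with no overlap. The call at WT day 4 without VC was lost in 5 of 6 fits that left out a library, and that at day 2 plus VC with day 0 without VC as the baseline (0.24). The D/KO libraries with VC were at 37.4 to 40.3 CPM at day 0, rose to 53.4, 49.3 and 54.0 at day 2 (0.41, lost in 1 of 6 such fits) and were at 39.5, 29.4 and 34.2 at day 4 (-0.19, not called). At day 4 plus VC every D/KO library lay below every WT library (-0.96, SE 0.14). VC raised Ercc5 in D/KO cells at day 0 (0.51, lost in 1 of 6 such fits) and day 2 (0.59).

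Ercc6, the remodeller that acts at stalled RNA polymerase II, rose in WT cells at day 4 plus VC from 9.92, 14.2 and 9.09 CPM to 20.6, 26.1 and 26.0, with no overlap (1.12, SE 0.23, edgeR adjusted p = 0.000145). It also rose at WT day 4 (0.62), a call lost with the gene length correction (0.46) and in 5 of 6 fits that left out a library. At D/KO day 2 it rose from 10.6, 8.97 and 6.54 CPM to 13.7, 13.9 and 18.1 (0.81, SE 0.24), also with no overlap, and the call was lost without D/KO day 0 replicate 3 (0.63) or D/KO day 2 replicate 3 (0.66). With VC, Ercc6 in D/KO cells was at 15.4, 9.79 and 14.9 CPM at day 0 and at 14.3, 8.47 and 15.4 at day 4, groups that overlapped. Ercc8, which acts in the same branch, was called against day 0 in 1 comparison, WT day 2 plus VC. There it went from 3.85, 2.89 and 2.39 CPM to 1.53, 1.59 and 2.19 (-0.78, SE 0.24, edgeR adjusted p = 0.0142), on 25 to 36 counts per library at day 2, and the call was lost in 3 of 6 fits that left out a library, without a filter and with only the groups compared.

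Whether the changes differed between the genotypes was tested directly, though genotype cannot be told apart from sex, age, line and reporter here. Without VC no member was called by edgeR at day 2 or day 4, where 6.54% and 14.3% of genes were. With VC, 1 of 10 was called at day 2 (13.9% of genes) and 3 of 10 at day 4 (29.4% of genes). The change of Ercc3 was larger in D/KO cells by 0.39 (SE 0.12) at day 2 and by 0.44 (SE 0.12) at day 4. The changes of Ercc5 and Ercc6 at day 4 were smaller in D/KO cells, with differences of -0.99 (SE 0.20, edgeR adjusted p = 0.000257) and -1.19 (SE 0.33, edgeR adjusted p = 0.00554). Both Ercc3 calls were lost without a filter and with only the groups compared, and that at day 2 also in 5 of 12 fits that left out a library. None of the 4 was called with day 0 without VC as the baseline, where they were 0.11, 0.17, -0.20 and -0.54. All 10 proliferation markers were higher in D/KO cells at day 4 plus VC (median log2 fold change 1.47), and 8 keratinocyte markers summed to 342 to 473 CPM there against 4.82 to 6.54 at day 0 plus VC, with Krt15 at 0. In WT cells at day 4 plus VC 5 of 10 proliferation markers were lower (median -0.46), and the keratinocyte sum was 14.9 to 16.1 CPM. The part of these in the members' values was not tested.

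Directly between D/KO and WT cells, 3, 5 and 7 of 10 members were called at days 0, 2 and 4, against 43.2%, 42.4% and 51% of genes, and with VC 3, 3 and 7, against 20.3%, 39.2% and 54%. All of these calls other than the 4 of Ercc3 were lower in D/KO. The shares of genes just given are for either direction, so this lean to lower was not set against that of all genes. Besides Ercc1, Ercc2 and Slx4, Ercc5 was lower in D/KO at days 0, 2 and 4 and at day 4 plus VC (log2 fold changes from -0.96 to -0.69), and Ercc6 at day 4 with and without VC (-0.92 and -0.63). Ercc8 was lower at days 2 (-0.62) and 4 (-0.56) and Xpc at day 0 plus VC (-0.44) and day 4 plus VC (-0.45). At day 4 the calls of Ercc6 (-0.35), Ercc8 (-0.38) and Ercc3 (0.17) were lost with the gene length correction, and that of Ercc8 at day 2 without WT day 2 replicate 2 (-0.32). Leaving out a library ended the calls of Ercc6 at day 4 in 4 of 6 fits, of Ercc8 at days 2 and 4 in 3 and 5 of 6, of Ercc3 at day 4 in 2 of 6 and of Xpc at day 0 plus VC in 3 of 6. Those of Ercc8 and that of Xpc were also lost without a filter and with only the groups compared. Without D/KO day 4 replicate 3 the difference of Ercc6 at day 4 was -0.998. Ercc4 and Xpa were called in none of the 6 conditions. Polr1g, which shares 3.41% of the exon bases of Ercc1, was also lower in D/KO cells without VC at days 0, 2 and 4 (-0.73, -0.83 and -0.94) and at day 4 plus VC (-0.77). The lines also differed in markers of other cells: 5 endothelial markers summed to 198 to 710 CPM in D/KO and 4.73 to 116 in WT libraries, and 6 macrophage markers to 7.47 to 21.3 in D/KO and 49.4 to 153 in WT. All 10 proliferation markers were higher in D/KO cells at days 0, 2 and 4 (medians 1.68, 1.52 and 1.65) and at days 2 and 4 plus VC (1.27 and 1.77), while at day 0 plus VC 1 was higher and 1 lower (-0.14). The part of these markers was not tested.

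For VC at a fixed day the members called were 3, 2 and 1 in D/KO cells at days 0, 2 and 4 (26.1%, 25.3% and 34.5% of genes) and 0, 2 and 0 in WT cells (29.4%, 26.6% and 22.4%). The WT calls at day 2 were Ercc4 (0.33) and Ercc8 (-0.72), each lost in 3 of 6 fits that left out a library, without a filter and with only the groups compared. Without WT day 2 replicate 2 the value of Ercc8 was -0.43. With the gene length correction 1 member was called in WT cells at day 0 and 1 at day 4. Of the 18 genes of gap filling and ligation, 4, 9 and 13 were higher with VC in D/KO cells at days 0, 2 and 4 and 12, 5 and 9 in WT cells, and 1 was lower, in D/KO cells at day 4. The shares of all genes given here are for either direction, so these counts by direction were not set against them. Of the 10 proliferation markers 1, 4 and 9 were higher with VC at those days in D/KO, as were 9, 7 and 9 in WT. At D/KO day 0 the endothelial sum was 585.7 to 709.7 CPM without VC and 214.9 to 256.0 with it, and the fibroblast sum 79410 to 118400 and 183100 to 252500. At WT day 0 these were 14.56 to 17.29 and 4.73 to 7.08, and 51490 to 53290 and 154800 to 170600. The part of these markers was not tested.

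The partners of the members in the pathway were followed as 54 genes in 6 lists. In D/KO day 4 plus VC 17 were higher and 5 lower, with a median log2 fold change of 0.18, against 27.9% and 26.2% of all genes. Of the 18 gap filling and ligation genes 10 were higher and 2 lower (median 0.66). All 10 proliferation markers were higher there (median 1.47), and their part in the partners' values was not tested. The largest rises were in Pole, the catalytic subunit of polymerase epsilon (1.77, SE 0.21), and Lig1, a DNA ligase (1.35, SE 0.16), and the largest falls in Pole4, an accessory subunit (-0.93), and Polk, a translesion polymerase (-0.65). Among the other lists 1 of 8 damage recognition partners was higher, 1 of 8 other TFIIH subunits was higher and 2 lower, and 3 of 8 transcription-coupled repair partners were higher. Of the RPA subunits 1 of 3 was higher, and of 9 SLX4 partners 1 was higher and 1 lower.

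In WT day 4 plus VC 12 partners were higher and 15 lower (median 0.03), against 22.7% and 22% of all genes, and the largest rises were in Ddb2, a lesion-binding protein (1.97, SE 0.34), and Uvssa, which acts at stalled polymerases (1.54, SE 0.33). The largest falls were in Eme1, a nuclease subunit (-1.70, SE 0.58), and Pole4 (-0.93). Pole4 was also lower in D/KO day 2 without VC (-0.94) and with it (-1.04), in D/KO day 4 (-0.88) and in WT day 4 (-0.81). At D/KO day 4 without VC 11 partners were higher and 4 lower, against 18.3% and 18.7% of all genes, with the largest rise in Ddb2 (1.37, SE 0.37) and the largest falls in Pole4 and Rad23b (-0.40).

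**Figure D5:**
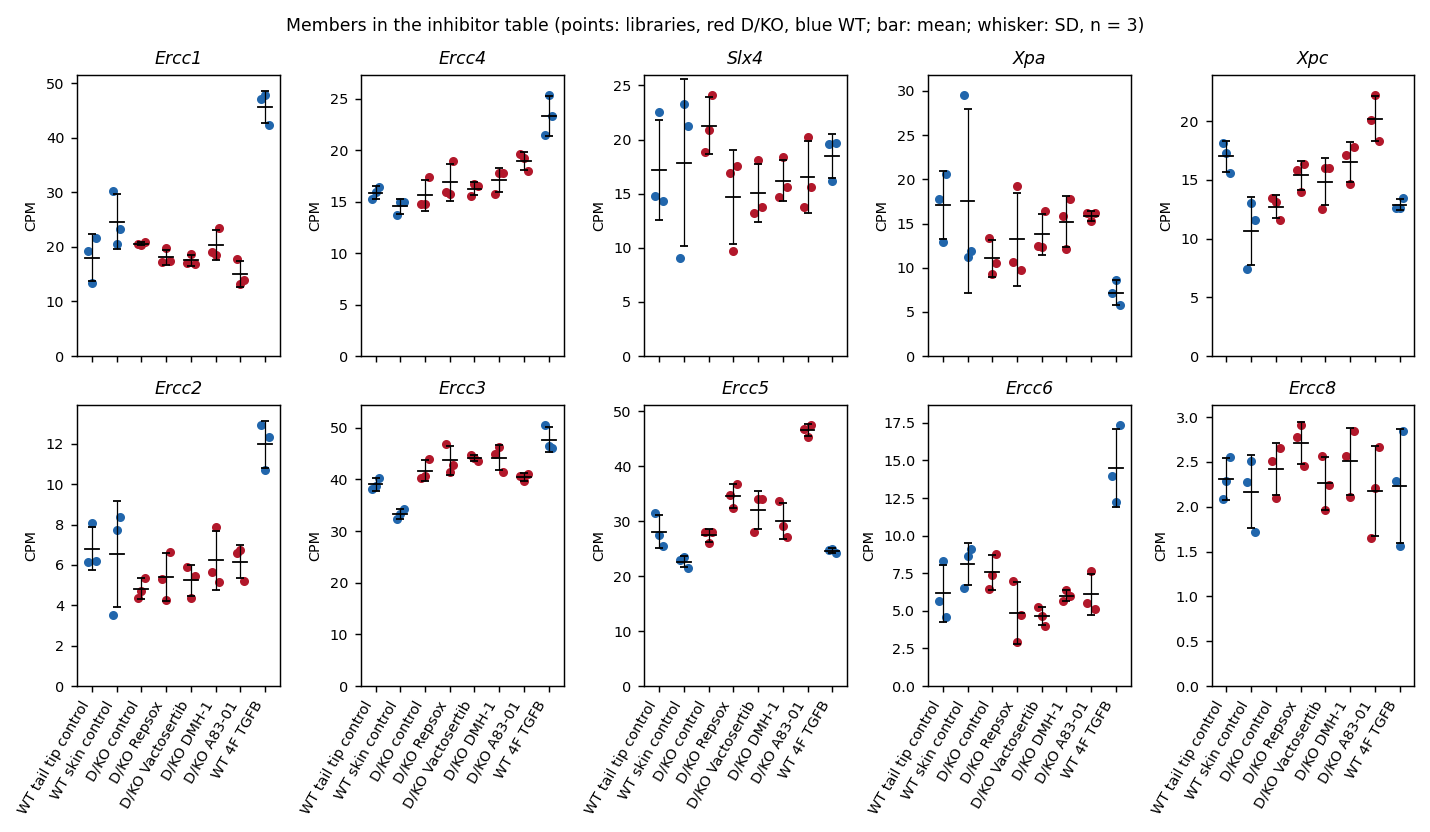
CPM of each member in the 8 groups of the inhibitor table, with points for libraries and means and SDs of 3 libraries, each panel on its own axis. Ercc5 is highest with A83-01 (45.3 to 47.4 CPM), and Ercc1, Ercc2, Ercc3, Ercc4 and Ercc6 are highest on average in WT 4F TGFB.

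The inhibitors addressed whether blocking TGFb or BMP receptors changed these genes in D/KO cells. With A83-01 3 of 10 members were called, near the share of all genes (27.5% of 15652), with Repsox 1 (20.7%), with Vactosertib 0 (18.1%) and with DMH-1 0 (7.25%). Per the study all were given for 3 days, A83-01 and DMH-1 at a higher dose than Repsox and Vactosertib. Between inhibitors of unlike dose, compound and dose cannot be told apart. With the gene length correction Repsox had 2 and Vactosertib 1, and with only the groups compared Repsox had 0 and Vactosertib 2. All 4 comparisons share the D/KO control libraries. By DESeq2 as by edgeR in the fit of all groups, Vactosertib and DMH-1 had 0 of 10 members called, while 2 and 1 members had an unadjusted edgeR p under 0.05.

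Ercc5 was at 28.1, 26.1 and 28.1 CPM in D/KO control and at 46.8, 45.3 and 47.4 with A83-01, with no overlap (0.76, SE 0.10, edgeR adjusted p = 8.35e-06). It was at 34.7, 32.4 and 36.7 CPM with Repsox, also above all controls (0.34, SE 0.10, edgeR adjusted p = 0.0251), a call lost in 5 of 6 fits that left out a library, without a filter and with only the groups compared. With Vactosertib it was at 28.03 to 34.0 CPM (0.22) and with DMH-1 at 33.6, 29.1 and 27.1 (0.13), neither called. Xpc rose with A83-01 from 13.46, 13.1 and 11.6 CPM to 20.1, 22.2 and 18.3 (0.67, SE 0.16, edgeR adjusted p = 0.00324). Its log2 fold changes with Repsox, Vactosertib and DMH-1 were 0.27, 0.22 and 0.38, not called. Ercc1 was lower with A83-01, at 17.7, 13.2 and 14.0 CPM (-0.46, SE 0.17, edgeR adjusted p = 0.0426), below all 3 controls. This call was lost without a filter and in 5 of 6 fits that left out a library. Ercc4 was at 19.6, 19.2 and 17.9 CPM with A83-01 (0.28, edgeR adjusted p = 0.0564). Polr1g fell with Repsox (-0.79) and Vactosertib (-0.97).

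Within the pairs given at a matched dose, A83-01 against DMH-1 had 1 member called, Ercc5 (0.63, SE 0.10, edgeR adjusted p = 0.00011), against 20.5% of genes. Its 95% interval was 0.42 to 0.85. The count was 2 with DESeq2, with only the groups compared, with the gene length correction and in the fit of 18 libraries, and 1 to 2 when a library was left out. The other 9 were not called by edgeR with all libraries, among them Ercc1 with a difference of -0.44 and a 95% interval from -0.78 to -0.10. Repsox against Vactosertib had no gene called at all (0%) by edgeR, with 347 genes at an unadjusted p under 0.05, while DESeq2 called 3 genes higher and 3 lower. The members' differences ran from -0.06 for Xpa (95% interval from -0.71 to 0.59) to 0.27 for Ercc8 (from -0.20 to 0.73), so the intervals hold differences of either sign.

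With A83-01 9 of 10 proliferation markers were lower (median -1.26) and the fibroblast markers summed to 42000 to 44700 CPM, against 78710 to 83870 in D/KO control. The endothelial sum was 141.1 to 180.8 CPM with A83-01 against 290.3 to 331.5 in D/KO control. It was 228.7 to 373.8 with Repsox, 264.1 to 336.9 with Vactosertib and 318.6 to 411.4 with DMH-1. The fibroblast sum was also lower with Repsox (40300 to 47680) and Vactosertib (48640 to 52060), where 3 and 4 proliferation markers were lower, and the part of these markers in the members' values was not tested. Of the 54 partners 2 were higher and 5 lower with A83-01, where 27.5% of all genes were called, with Xab2, a partner of XPA (0.56, SE 0.11), and Xrcc1, a scaffold of ligation (0.51, SE 0.11), higher and Lig3, its ligase (-0.83, SE 0.28), and Rad23b, a partner of XPC (-0.63, SE 0.13), the lowest of those called. Xab2 also rose with Repsox (0.40) and Vactosertib (0.41), and Rfc1, a subunit of the clamp loader, fell with both (-0.76 and -0.73).

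Among the control groups of the inhibitor table, D/KO against WT tail tip cells had 1 of 10 members called, Xpc (-0.42, SE 0.16, edgeR adjusted p = 0.0497), against 34.6% of genes, and the call was lost in all 6 fits without a library, without a filter and with DESeq2's size factors. The endothelial markers summed to 290.3 to 331.5 CPM in D/KO control and 73.4 to 91.2 in WT tail tip, and 6 of 10 proliferation markers were higher and 1 lower in D/KO (median 0.83), whose part was not tested. Genotype and donor age cannot be told apart in this comparison. Skin against tail tip WT cells had 4 (34.2% of genes): Ercc1 higher (0.45) and Xpc (-0.67), Ercc5 (-0.31) and Ercc3 (-0.23) lower. Ercc1 was at 30.2, 20.5 and 23.3 CPM in skin. Without skin replicate 1, the library of the lowest length slope, the log2 fold change of Ercc1 was 0.28, and without WT tail tip replicate 2 it was 0.27, and neither was called. The calls of Ercc1, Ercc5 and Ercc3 were lost in 4, 2 and 4 of 6 fits that left out a library, and all 3 without a filter. With only the groups compared none of the 4 was called, and Ercc3 was not with DESeq2's size factors or after the gene length correction (-0.18). In skin all 10 proliferation markers were higher (median 1.93), and 5 muscle markers summed to 57.4 to 84.1 CPM against 2.09 to 3.77 in tail tip, with Myf5 and Pax7 at 0 in both. The part of these was not tested. Xpa was at 29.5 CPM in skin replicate 1 and at 11.2 and 11.9 in the others.

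WT 4F TGFB against WT tail tip had 7 of 10 members called (62.2% of genes, with the median of all genes at -0.11). Ercc1 was at 47.0, 47.8 and 42.3 CPM, above every other library of its table (1.34, SE 0.17, edgeR adjusted p = 5.23e-07), with Polr1g at 34.1, 35.4 and 34.5 CPM (1.51). Ercc6 (1.23), Ercc2 (0.81), Ercc4 (0.56) and Ercc3 (0.29) were higher, and Xpa (-1.25), at 7.16, 8.57 and 5.73 CPM, and Xpc (-0.40) were lower. The call of Xpc was lost in 5 of 6 fits that left out a library, those of Xpc and Ercc3 without a filter, and that of Xpc with DESeq2's size factors. The endothelial sum was 1.198 to 1.88 CPM in WT 4F TGFB against 73.4 to 91.2 in tail tip and the muscle sum 13.7 to 16.1 against 2.09 to 3.77, and 7 of 10 proliferation markers were lower and 1 higher (median -1.06). The part of these was not tested. Line, age and treatment change together in this comparison and cannot be told apart.

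Over the 12 group means of log2 CPM in the reprogramming table the genes most like Ercc1 were Tapbpl (Pearson r = 0.974), Rchy1 (0.974), Icam5 (0.966), Fgfbp3 (0.965) and H2-DMb1 (0.962). The points share the same 2 lines, and over the 8 groups of the inhibitor table the same genes had r of -0.74, -0.66, -0.97, 0.53 and 0.05. Of the members Ercc2 was the most like Ercc1 in the reprogramming table (r = 0.784, and 0.820 in the inhibitor table), followed by Slx4 (0.758), at ranks 916 and 1136 of all genes by r. In the inhibitor table Ercc6 was the member with the highest r (0.906), against 0.05 in the reprogramming table. Ercc4 had r of -0.41 and 0.59, and Polr1g 0.636 and 0.875.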

How the data were processed

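RNA sequencing was done on 60 libraries of mouse fibroblasts, and the authors deposited raw counts per gene, with exon coordinates and gene length, in 2 tables. Per the study and the submitters' processing notes, reads were checked with FastQC, trimmed with Trim Galore, aligned to GRCm39 with HISAT2 and counted with featureCounts of Subread. Tool versions, strandedness and annotation release are not given in the sources used here. Symbols come from GENCODE M39, which matched 56236 of 56980 identifiers. The authors' counts were tested per table in R 4.3.3 with edgeR 4.0.16 (TMM, filterByExpr with a minimum count of 10 and total of 15, 15832 and 15652 genes kept, 1 coefficient per group, two-sided quasi-likelihood F-test, Benjamini-Hochberg within a contrast, called at an adjusted p under 0.05). Intervals are 95%. CPM use TMM library sizes. DESeq2 1.42.0, its size factors, no filter, only the groups compared, 18 inhibitor libraries, another baseline and each library left out were alternatives, and a correction for gene length was added after seeing the data. On simulated data with each gene's mean over all libraries, 100 genes were changed 1.5-fold and 100 were changed 2-fold. For D/KO day 4 plus VC 44% and 61% of these were recovered over 15188 genes, and for A83-01 10% and 49% over 15166 genes. In the real comparisons 54.1% and 27.5% of genes were called, so these rates need not hold there. The variance between replicates was 13.7 and 26.0 times that of counting noise (medians over pairs). The list of member names and the other lists were chosen with earlier results of these data known. The genes named are the members, genes that overlap them, the 2 largest called rises and falls among partners per comparison, the 5 genes most like Ercc1 and the reprogramming factors, apart from 1 partner not reported here.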

Additional observations from a re-analysis of the deposited data

Results flagged for a closer look

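In the test of the difference between the genotypes' changes, 4 values of members passed. At day 2 plus VC it was Ercc3 (0.39 on the log2 scale, D/KO change less WT change), where 13.9% of all genes were called. At day 4 plus VC these were Ercc3 (0.44), Ercc5 (-0.99) and Ercc6 (-1.19), where 29.4% of all genes were called. The members' shares lay near those of all genes. In all 4, genotype cannot be told apart from sex, age, line and reporter. For Ercc5 and Ercc6 the D/KO log2 fold changes were -0.19 and -0.07 and those of WT cells 0.80 and 1.12. All 4 had day 0 plus VC as the baseline, and none was called with day 0 without VC. Groups of 3 libraries were not tested for outlying samples.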

How the results depend on the processing

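Of 83 called member values, the 6 calls of Ercc1 in D/KO against WT not among them, 83 kept their direction and call with DESeq2, 79 with its size factors, 77 with the gene length correction (chosen after seeing the data), 61 with only the groups compared and 55 without a filter. The change of Ercc3 at D/KO day 4 plus VC turned from 0.31 to -0.0096 with day 0 without VC as the baseline. Leaving out a library put Ercc1 in D/KO against WT between -0.785 and -0.425 at day 0 and between -0.703 and -0.437 at day 0 plus VC, not called at the weaker end. Members called are given next as counts. With only the groups compared they were 2 for D/KO day 4, 1 and 3 for D/KO against WT at day 0 plus VC and day 2, 1 for VC in D/KO day 0, 1, 0 and 2 for VC in WT days 0, 2 and 4, 0 for the genotype difference at day 2 plus VC, 0 for Repsox, 2 for Vactosertib, 2 for A83-01 against DMH-1, 2 for control D/KO against WT and 0 for skin. Without a filter they were 0 and 3 for WT day 2 without and with VC, 1 for VC in D/KO day 2, 1, 0 and 1 for VC in WT days 0, 2 and 4, 1 and 0 for the genotype difference at day 4 and at day 2 plus VC, 3 for D/KO against WT at day 2, 0 for Repsox, 0 for control D/KO against WT and 1 for skin. With gene length corrected they were 2 for WT day 4, 1 and 1 for VC in WT days 0 and 4, 4 for D/KO against WT at day 4, 2 for Repsox, 1 for Vactosertib and 2 for A83-01 against DMH-1. With day 0 without VC as the baseline they were 3 for WT day 2 plus VC and 2 and 0 for the genotype difference at days 2 and 4 plus VC. DESeq2 called 5 for VC in D/KO day 0, 1 for VC in WT day 0 and 2 for A83-01 against DMH-1, its size factors 0 for control D/KO against WT, and the fit of 18 libraries 2 for A83-01 against DMH-1. Leaving out a library gave 1 to 5 for D/KO day 2, 0 to 1 for WT day 2, 1 to 4 for WT day 4, 3 to 4 for WT day 2 plus VC, 1 to 2 for VC in D/KO days 2 and 4, 0 to 1 for VC in WT day 0 and 1 for VC in WT day 2. It gave 0 to 1 for the genotype difference at day 4 and at day 2 plus VC, 3 to 4, 4 to 6 and 0 to 3 for D/KO against WT at days 2 and 4 and day 0 plus VC, 0 to 1 for Repsox, 1 to 2 for A83-01 against DMH-1, 0 for control D/KO against WT and 2 to 3 for skin. The cause was not tested, though fewer libraries leave less information on spread. No paired analysis was possible because the replicate numbers follow accession order and pair no samples.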
